A study of Homo sapiens with 6 samples.

Results

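The voltage-gated calcium and sodium channel genes were taken by symbol from the RefSeq gene table of GRCh38.p14. They are the protein-coding genes whose symbol begins with CACNA, CACNB or CACNG and a digit, or consists of SCN, digits and a final A or B. This gave 40 genes of 20037 protein-coding genes in the table, 26 for calcium channels and 14 for sodium channels. DNA-RNA hybrid immunoprecipitation sequencing (DRIP-seq) was used, in which the S9.6 antibody pulls down restriction-digested DNA that carries an RNA strand, as in an R-loop, and the sonicated DNA is sequenced. The cells were SH-SY5Y, a human neuroblastoma line, infected with a lentivirus that drives a short hairpin RNA from a U6 promoter and then kept under puromycin. The first group carried the hairpin shT2 (3 samples) and the other the hairpin shNC3 (3 samples). The series concerns TDP-43 knockdown, and from the names shT2 is read as the TDP-43 hairpin and shNC3 as its negative control. Each hairpin stands for 1 selected population. The labels do not mention separate infections for the samples of a hairpin, and the p-values cover the sample-to-sample spread alone, possibly of technical origin. The measure was the length of DNA under the authors' peaks from 2 kb before the gene to 2 kb after it, scaled so that every sample has the same total, in kb. Lengths of single regions are given in bp, before scaling.

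A voltage-gated calcium channel is built around an α1 subunit, which forms the pore and senses the membrane voltage. A cytoplasmic β subunit and an extracellular α2δ subunit help to bring it to the membrane and set how it opens. The γ genes encode proteins with a shared fold, of which CACNG1 and CACNG6 belong to the calcium channel group and several others are auxiliary subunits of AMPA-type glutamate receptors. In sodium channels a single α subunit forms the pore and starts the action potential, and small β subunits of the immunoglobulin type adjust it. SH-SY5Y cells are known to carry L-type and N-type calcium currents and sodium currents.

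The promoters of the channel genes give the sequence background of the peaks. RefSeq promoter windows of GRCh38.p14, which run from 250 bases before a start to 50 bases after it, matched 26 of the 40 genes and gave 40 windows. The first 4 windows printed are those of genes that passed the test and had a peak at the window, and the last 2, chosen after the values were seen, are windows of high and of low G+C content that no peak touched. All are written 5′ to 3′ on the strand of the gene. Capitals mark runs of at least 4 G or 4 C and any site of the 5 restriction enzymes of the protocol (TGTACA for BsrGI, GAATTC for EcoRI, AAGCTT for HindIII, AATATT for SspI and TCTAGA for XbaI, each of which reads the same on both strands). The windows lie at chr12:48814230-48814529 (plus strand, CACNB3), chr19:53991387-53991686 (plus strand, CACNG6), chr10:18140174-18140473 (plus strand, CACNB2), chr1:201112377-201112676 (minus strand, CACNA1S), chr12:51590983-51591282 (plus strand, SCN8A) and chr2:165239164-165239463 (plus strand, SCN2A).
CACNB3: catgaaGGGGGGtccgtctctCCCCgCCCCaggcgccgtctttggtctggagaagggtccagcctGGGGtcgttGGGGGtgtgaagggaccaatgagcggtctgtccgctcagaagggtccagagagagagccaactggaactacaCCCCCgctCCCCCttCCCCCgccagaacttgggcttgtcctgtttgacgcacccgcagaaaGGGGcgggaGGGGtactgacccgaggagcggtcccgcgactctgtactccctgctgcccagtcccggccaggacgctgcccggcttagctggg
CACNG6: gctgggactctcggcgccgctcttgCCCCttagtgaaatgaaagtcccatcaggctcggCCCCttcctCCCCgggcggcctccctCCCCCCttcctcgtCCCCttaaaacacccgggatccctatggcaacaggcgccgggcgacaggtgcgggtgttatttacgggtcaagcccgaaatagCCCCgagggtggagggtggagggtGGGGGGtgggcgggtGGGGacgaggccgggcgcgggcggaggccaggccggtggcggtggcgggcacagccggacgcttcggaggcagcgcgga
CACNB2: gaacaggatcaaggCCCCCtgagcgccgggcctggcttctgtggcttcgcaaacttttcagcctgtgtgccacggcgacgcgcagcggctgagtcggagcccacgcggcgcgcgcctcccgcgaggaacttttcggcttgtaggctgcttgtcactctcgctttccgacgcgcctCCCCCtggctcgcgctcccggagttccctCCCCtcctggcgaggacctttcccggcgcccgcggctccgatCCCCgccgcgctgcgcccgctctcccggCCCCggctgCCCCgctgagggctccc
CACNA1S: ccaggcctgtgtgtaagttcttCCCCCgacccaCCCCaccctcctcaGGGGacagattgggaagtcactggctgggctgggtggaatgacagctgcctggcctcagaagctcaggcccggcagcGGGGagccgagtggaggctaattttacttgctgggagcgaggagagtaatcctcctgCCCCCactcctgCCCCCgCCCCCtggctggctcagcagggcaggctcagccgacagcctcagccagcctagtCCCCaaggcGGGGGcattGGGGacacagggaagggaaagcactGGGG
SCN8A: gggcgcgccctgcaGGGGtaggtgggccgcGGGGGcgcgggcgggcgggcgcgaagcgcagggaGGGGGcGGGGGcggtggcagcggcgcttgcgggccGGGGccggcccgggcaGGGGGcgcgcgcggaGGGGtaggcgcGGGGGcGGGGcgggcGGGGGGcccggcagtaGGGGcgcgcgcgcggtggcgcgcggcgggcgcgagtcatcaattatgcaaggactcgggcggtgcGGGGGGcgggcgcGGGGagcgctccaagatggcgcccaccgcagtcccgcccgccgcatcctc
SCN2A: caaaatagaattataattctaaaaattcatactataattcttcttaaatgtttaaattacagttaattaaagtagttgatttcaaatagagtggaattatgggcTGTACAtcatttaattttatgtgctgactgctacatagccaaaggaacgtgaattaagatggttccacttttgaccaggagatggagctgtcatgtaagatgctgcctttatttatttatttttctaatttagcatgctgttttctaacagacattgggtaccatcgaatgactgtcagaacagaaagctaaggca

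The CACNB3 and CACNG6 windows were covered in full by peaks in all 6 samples, and the CACNB2 window was covered in full in 5 samples and over 141 bases in shNC3 replicate 2. The CACNA1S window lay under a peak in shNC3 replicate 1 only. The SCN8A window, with a G+C content of 84.0% and 13 runs of G, had no peak in any sample, although peaks lay on both sides of it. The SCN2A window, with a G+C content of 31.7% and a BsrGI site, had none either.

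Among all 40 channel windows, 7 windows of 5 genes (CACNA2D1, CACNB1, CACNB2, CACNB3 and CACNG6) were under a peak in all 6 samples, which is 17.5%, beside 18.4% of the 22199 windows of protein-coding genes. No sample had a peak at 31 windows, or 77.5%, beside 59.0% of the windows of protein-coding genes. The median G+C content was 70.7% in the 7 covered windows and 60.3% in the 31 windows with no peak. The 4 windows richest in G+C, those of CACNA1B (85.3%), SCN8A (84.0%), CACNA1D (83.0%) and CACNA1C (82.3%), were under no peak. A run of at least 4 G stood in 70.0% of the channel windows and in 81.1% of the windows of protein-coding genes, and a run of at least 4 C in 72.5% and 78.7%. A site of any of the 5 enzymes was present in 11 channel windows, or 27.5%, beside 18.4% of the windows of protein-coding genes. None of these 11 windows was under a peak, and neither were 3062 of the 4086 windows of protein-coding genes with such a site. The windows of 1 gene can overlap, so they are not independent observations.

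**Figure D1:**
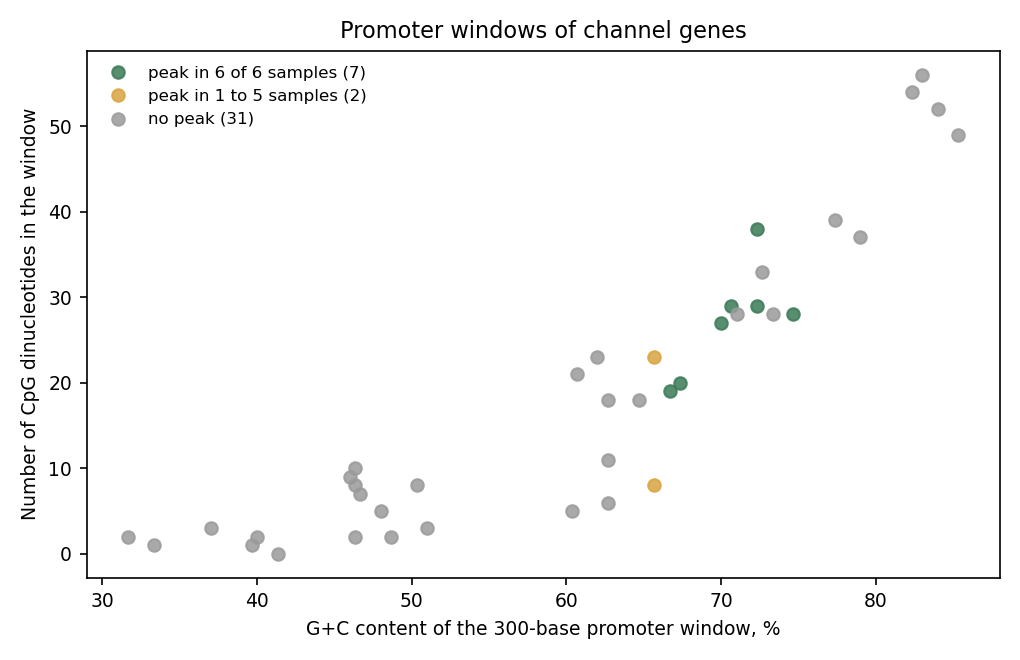
The 40 promoter windows of 26 channel genes, with the G+C content of the 300-base window in percent on the horizontal axis and its number of CpG dinucleotides on the vertical axis. The 7 windows under a peak in all 6 samples lie between 66.7% and 74.7%, while the 4 richest windows, between 82.3% and 85.3%, had no peak.

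The samples of the series differed by hairpin in depth and list length. The lists held 49068 to 50971 peaks in shT2 samples and 42717 to 45390 in shNC3 samples, covering 72.7 to 78.2 Mb in shT2 samples and 62.9 to 70.5 Mb in shNC3 samples. The depth recovered from the deposited fold and p values was 3.08 to 3.46 fragments per base in shT2 samples and 1.65 to 1.79 in shNC3 samples. Each of these differences had an exact two-sided permutation p of 0.1, the smallest that 3 samples against 3 allow. The gene of the TDP-43 protein, TARDBP, had 9.36, 8.69 and 7.64 kb under peaks in shT2 samples against 11.8, 11.9 and 10.7 kb in shNC3 samples (log2 difference −0.40 ± 0.09, SE, limma adjusted p = 0.00683), which is R-loop coverage and no measure of its RNA. Of 12 markers of noradrenergic neuroblastoma cells, 10 had a peak in all 6 samples and TH had none. Their summed coverage was 104 to 114 kb in shT2 samples and 83.3 to 90.5 kb in shNC3 samples. Of 12 markers of mesenchymal neuroblastoma cells, 6 had no peak in any shT2 sample and COL1A2 and SNAI2 had none in any sample. Their summed coverage was 15.3 to 16.2 kb in shT2 samples and 52.0 to 56.0 kb in shNC3 samples. The part of this marker difference in the channel results was not tested. A shorter covered length can come from fewer cells with a hybrid or from less hybrid per cell, and these cannot be told apart in bulk DNA. Scaling to the same total shifts lengths as well. FGF11, a gene of the regulator list below, had 7251 bp under peaks in each of the 6 samples before scaling. After scaling its log2 difference was −0.15, which did not pass (limma adjusted p = 0.120).

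Of the 40 channel genes, 14 had a peak in all 6 samples and 17 had one in at least 3, the condition for being tested. Another 9 had a peak in 1 or 2 samples, and 14 had none. The 17 tested genes were 42.5% of the channel genes, against 58.7% of all protein-coding genes (11771 of 20037). Of the 3356 protein-coding genes with a span of at least 100 kb, 60.1% were tested, as were 8 of the 22 channel genes of that length. The calcium and sodium genes were unequal, with 14 of 26 calcium channel genes tested and 3 of 14 sodium channel genes.

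All 4 α2δ genes and all 4 β genes had a peak in at least 1 sample. By contrast no peak was found in 5 of the 10 α1 genes of calcium channels: CACNA1A (P/Q-type), CACNA1E (R-type), CACNA1F (the L-type channel of the retina), and CACNA1H and CACNA1I (both T-type). The γ genes CACNG3, which encodes an AMPA receptor auxiliary subunit, and CACNG5 had none. Among sodium channels 6 of the 10 α genes had no peak: SCN1A, SCN2A and SCN3A of the brain, SCN4A of skeletal muscle, SCN10A of pain-sensing neurons and SCN7A, whose product senses extracellular sodium. The β gene SCN2B had none. The genes SCN1A, SCN2A, SCN3A, SCN7A and SCN9A all lie on chromosome 2, and the only peaks among these 5 genes were 1 region before the start of SCN9A, at chr2:166377296-166377695, in shNC3 replicates 2 and 3. SCN9A, the main sodium channel of pain-sensing and sympathetic neurons, had 400 and 294 bp under peaks in these 2 samples.

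**Figure D2:**
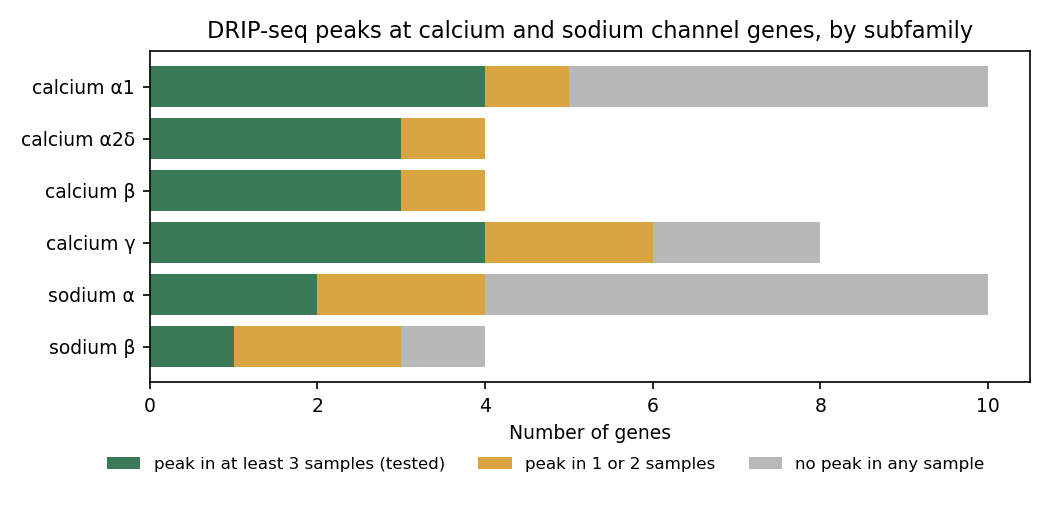
Number of channel genes (horizontal axis) in each of the 6 subfamilies (vertical axis), split by whether a peak was found in at least 3 samples, in 1 or 2 samples, or in none. All α2δ and β genes had a peak in some sample, while 5 of 10 calcium α1 genes and 6 of 10 sodium α genes had none.

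Other genes with a peak in only 1 or 2 samples had short ones. CACNG1, a γ subunit of skeletal muscle, had 699 bp in shT2 replicate 2, and SCN3B, a sodium channel β gene, had 330 bp in shT2 replicate 1. CACNG2, which encodes the AMPA receptor auxiliary subunit stargazin, had 219 bp in shT2 replicate 3 and 289 bp in shNC3 replicate 2. A peak in 1 shNC3 sample was found in CACNA1D, an L-type pore gene, with 307 bp, in CACNA2D3, an α2δ gene, with 547 bp, in the β gene CACNB4 with 311 bp and in SCN4B, a sodium channel β gene, with 325 bp. None of the 9 genes with a peak in 1 or 2 samples was tested.

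Of the 17 tested channel genes, 10 passed the threshold of the limma fit (adjusted p under 0.05, Benjamini-Hochberg over all 11771 genes), which is 58.8% beside 51.3% of all tested genes. Coverage was longer in shT2 samples for 6 channel genes, 35.3% beside 24.2% of all tested genes, and shorter for 4, 23.5% beside 27.2%. The values of the hairpins did not overlap for 12 of the 17, 70.6% beside 65.0%. These shares are near those of all tested genes, so they are no result about channel genes as a set. The median log2 difference of shT2 minus shNC3 was 0.01 for the 17 channel genes and −0.08 for all tested genes. All 10 genes that passed were calcium channel genes, and each of the 4 calcium subfamilies held both tested genes that passed and 1 that did not. When the lists were thinned to equal depth, all 10 passed again in the same direction. Thinning removed whole peaks and left the others at their deposited width, so it did not even out differences of peak width with depth. The 10 include CACNA1B, which has no peak in shNC3 samples.

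**Figure D3:**
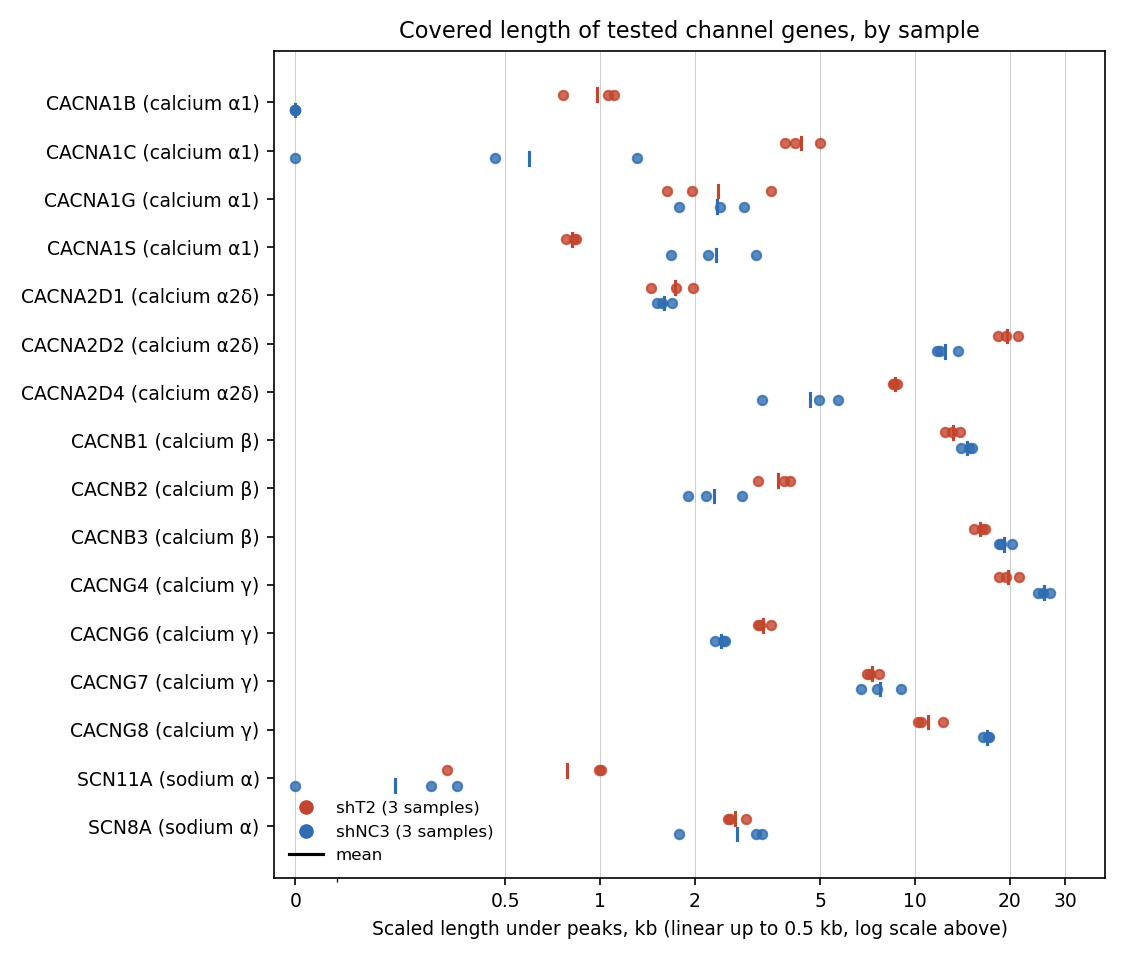
Scaled length under peaks in kb (horizontal axis, linear up to 0.5 kb and logarithmic above) for 16 of the 17 tested channel genes (vertical axis), with 1 point per sample and a bar for the mean of 3. CACNA1B has no peak in any shNC3 sample, and CACNG4, CACNB3 and CACNG8 have more in every shNC3 sample than in any shT2 sample.

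**Figure D4:**
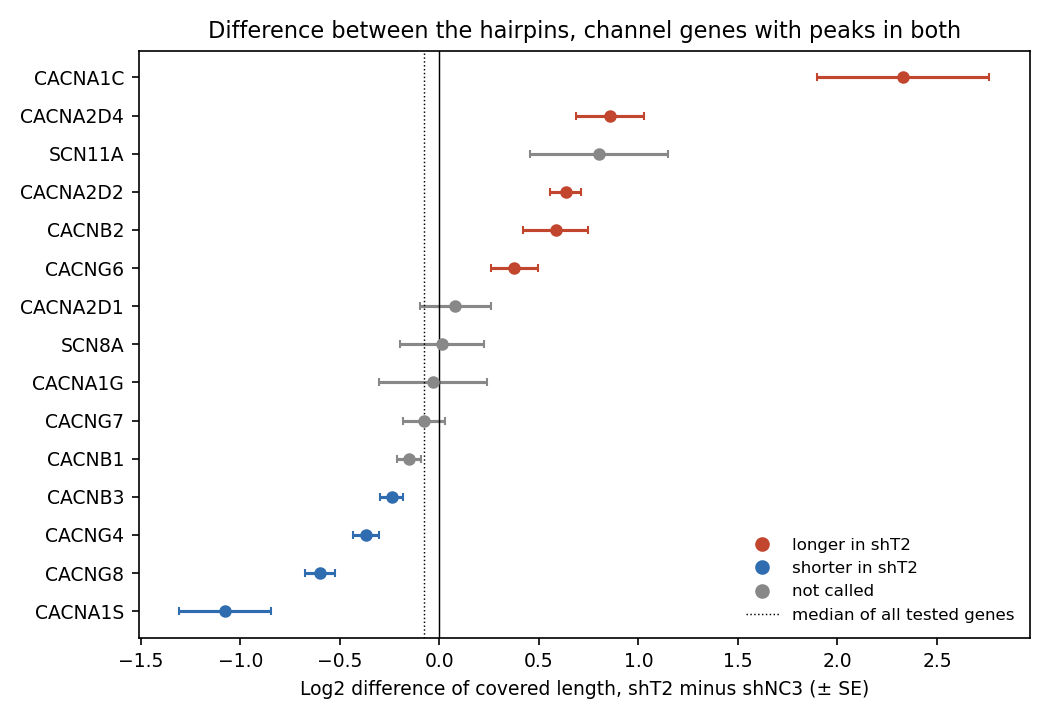
Log2 difference of scaled covered length plus 500 bp, shT2 minus shNC3, for 15 of the 17 tested channel genes, with bars of ± 1 standard error from the limma fit and a dotted line at the median of all tested genes (−0.08). The 5 genes drawn as longer in shT2 lie between 0.38 and 2.33 and the 4 shorter genes between −1.07 and −0.24. CACNA1B, with no peak in shNC3 samples, is not drawn.

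Among the α1 genes, coverage was longer in shT2 for CACNA1B and CACNA1C and shorter for CACNA1S, and CACNA1G did not pass. CACNA1B, the pore of the N-type channel that triggers transmitter release at many nerve endings, had 1.06, 1.11 and 0.763 kb under peaks in shT2 samples and none in any shNC3 sample. It met the condition for being tested only through its shT2 samples, so its place among the 6 longer genes is a description, and no fold or p is given for it. Its coverage came from 2 regions, chr9:137879052-137879952 and chr9:137881882-137882780, which begin 1270 and 4100 bp after the start of the gene. Both lie within the antisense gene CACNA1B-AS2 as well, and DRIP-seq peaks do not tell the strands apart. Each region was present in every shT2 sample and in no shNC3 sample. Most of these peaks ranked low within their own lists. The strongest in the first region had a higher fold than 38.2%, 44.2% and 27.8% of the peaks in shT2 replicates 1, 2 and 3, and in the second region than 20.7%, 39.1% and 55.3%.

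CACNA1C, the pore of the main L-type channel of heart and brain, had 3.87, 4.15 and 5.00 kb in shT2 samples against 1.31, 0 and 0.476 kb in shNC3 samples. The lowest shT2 value was above the highest shNC3 value, and shNC3 replicate 2 had no peak at all. The log2 difference was 2.33 ± 0.43 (SE, n = 3 each, limma adjusted p = 0.00384). Its size depends on the 500 bp added to every value, being 3.35 with 100 bp and 1.32 with 2000 bp. The coverage was scattered over 16 short regions in a span of 727 kb, and no region was in all 6 samples. The widest had 1308 bp. Of these 16, 14 were seen in shT2 samples only, and 2 of them, at chr12:2548338-2548840 and chr12:2549384-2549886, were in all 3. These 2 ranked low by fold. The first was above 14.0%, 31.6% and 14.9% of the peaks in shT2 replicates 1, 2 and 3, and the second above 20.7%, 8.81% and 27.8%. A further region, chr12:2054400-2055707, was in every shT2 sample and in shNC3 replicate 1, and lies 1413 bp after the RefSeq start at the promoter window. The only region seen in shNC3 samples alone, chr12:2290019-2290839, was in replicates 1 and 3.

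CACNA1S, the L-type pore and voltage sensor of skeletal muscle, had 0.828, 0.779 and 0.838 kb in shT2 samples against 3.12, 2.2 and 1.67 kb in shNC3 samples. All 3 shT2 values were below the lowest shNC3 value, with a log2 difference of −1.07 ± 0.23 (SE, n = 3 each, limma adjusted p = 0.00715). The difference was −1.37 with 100 bp added and −0.61 with 2000 bp. A single region, chr1:201111330-201117468, gave all of it. That region, merged over all samples, spans the start of CACNA1S and reaches into the neighbouring gene ASCL5, a transcription factor gene. Only shNC3 replicate 1 had a peak over the start itself. Before scaling the region put 858 bp of the CACNA1S window under peaks in each shT2 sample, against 3097, 1951 and 1604 bp in shNC3 samples. ASCL5 itself was shorter in shT2, with 2.78 kb on average in shT2 samples and 4.94 kb in shNC3 samples (log2 difference −0.73, limma adjusted p = 0.00527). The peaks cannot be divided between these genes.

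CACNA1G, a T-type channel gene, averaged 2.36 ± 0.995 kb in shT2 samples and 2.35 ± 0.545 kb in shNC3 samples (SD, n = 3 each). The values overlapped, and the log2 difference was −0.03 ± 0.27 (SE, limma adjusted p = 0.931). Its start lies under a region shared with SPATA20 and CACNA1G-AS1. SPATA20 was shorter in shT2, at 6.41 kb on average in shT2 samples and 10.5 kb in shNC3 samples (log2 difference −0.67, limma adjusted p = 0.000342). With 10 kb on each side of the span in place of 2 kb, CACNA1G passed as shorter, with −0.49.

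Of the 3 tested α2δ genes, CACNA2D2 and CACNA2D4 were longer in shT2. CACNA2D2, a gabapentin-binding subunit of the brain, had 19.4, 21.2 and 18.3 kb in shT2 samples against 13.7, 12.0 and 11.7 kb in shNC3 samples. Every shT2 value exceeded every shNC3 value, and the log2 difference was 0.64 ± 0.08 (SE, n = 3 each, limma adjusted p = 0.00057). Before scaling, 14.2% of the gene window was covered on average in shT2 samples and 8.12% in shNC3 samples.

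CACNA2D2 held 21 regions, more than any other channel gene. The 4 that were in all 6 samples lie together at the 3′ end of this minus-strand gene, between chr3:50362587-50369129 and chr3:50378088-50381718. The outermost of them was nearly equal in all samples, with 6191, 6449 and 6543 bp in shT2 samples and 6191, 5829 and 6191 bp in shNC3 samples. The next one inward had 4124, 3484 and 3484 bp in shT2 samples against 2298, 1632 and 1621 bp in shNC3 samples, and the third had 2360, 2365 and 2297 bp against 1089, 512 and 339 bp. The innermost overlapped, with 3099, 3323 and 3631 bp in shT2 samples and 3190, 2302 and 3088 bp in shNC3 samples. The nearest of these regions lies 121916 bp from a listed start. The lncRNA genes LOC127898564 and LOC101928965 lie under the outermost. In the gene body 14 regions were seen in shT2 samples only, of which 3, at chr3:50414262-50414916, chr3:50443337-50444381 and chr3:50453192-50453596, were in all 3 shT2 samples. When coverage was counted only within 2 kb of each gene end, the difference was 0.0036 and did not pass (limma adjusted p = 0.985).

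CACNA2D4, a subunit known from the retina, had 8.75, 8.49 and 8.58 kb in shT2 samples against 3.28, 4.94 and 5.68 kb in shNC3 samples. The shT2 values were close to each other and all above the shNC3 values, with a log2 difference of 0.86 ± 0.17 (SE, n = 3 each, limma adjusted p = 0.00514). Nearly all of it came from 1 region, chr12:1792871-1801939, which also holds the lncRNA gene LOC105369602. In shT2 replicates 1 and 2 a single peak filled its 9069 bp, and in replicate 3 peaks covered 8787 bp. In shNC3 samples separate peaks covered 3254, 4377 and 5445 bp of it. CACNA2D1, the other gabapentin-binding subunit, averaged 1.72 ± 0.261 kb in shT2 samples and 1.59 ± 0.0942 kb in shNC3 samples (SD, n = 3 each), nearly all in 1 region at its start that was in all 6 samples. Its log2 difference was 0.08 ± 0.18 (SE, limma adjusted p = 0.712).

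**Figure D5:**
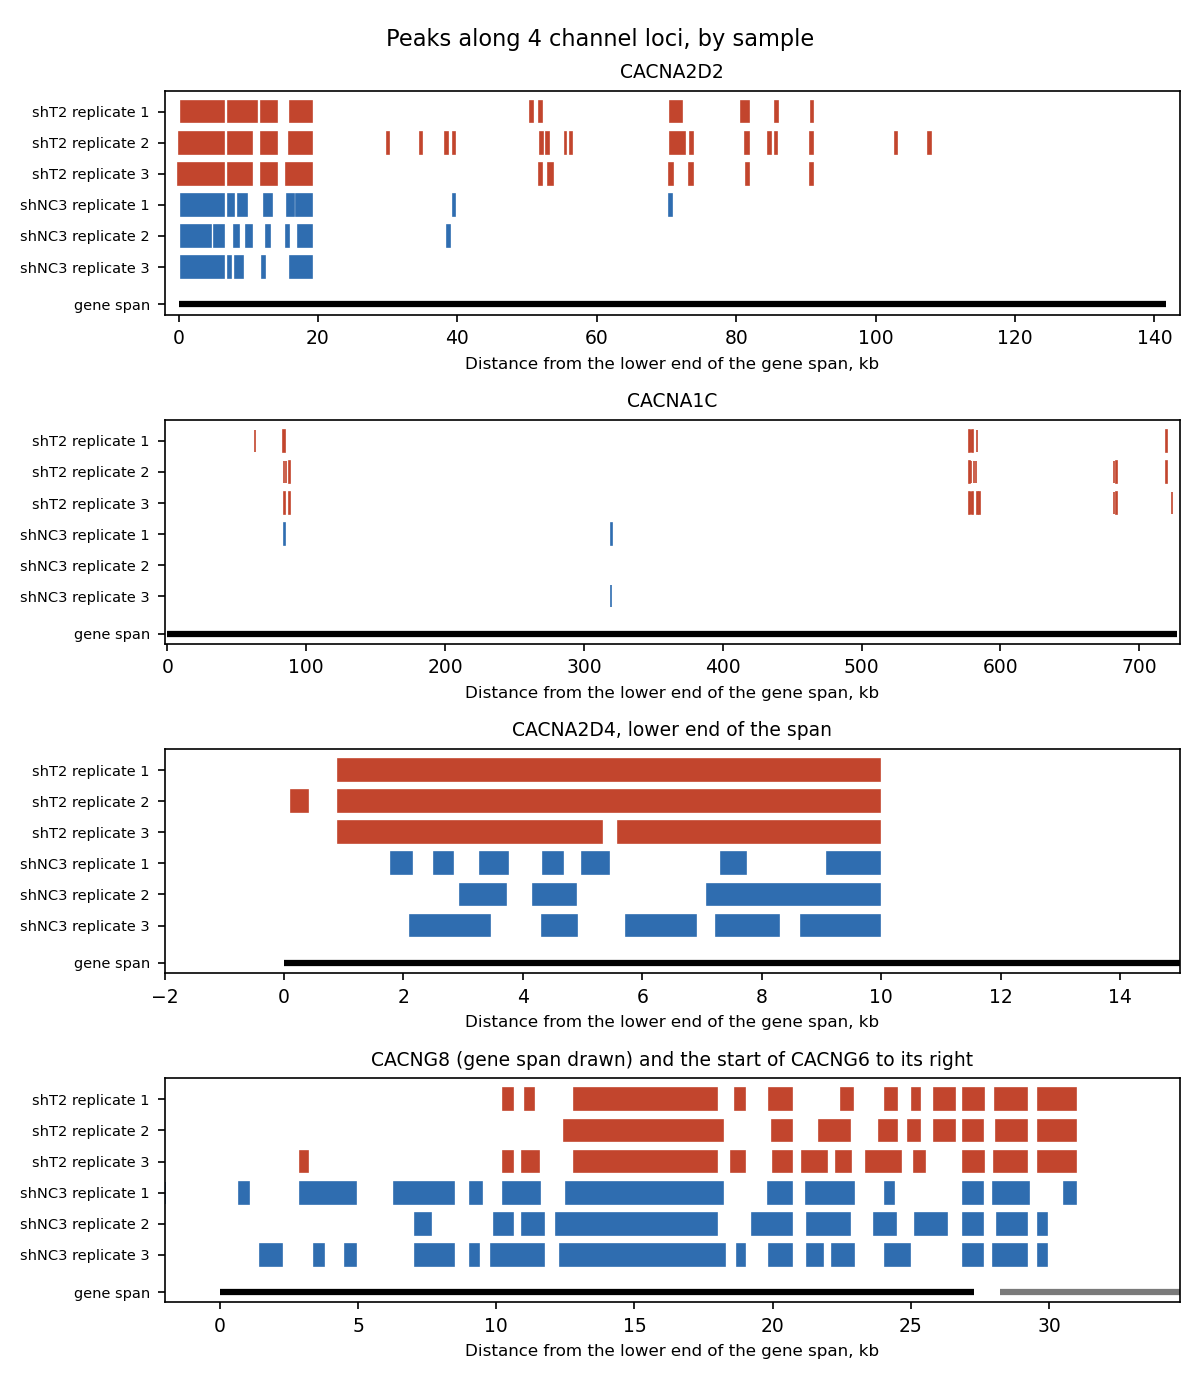
Peaks of each sample (coloured bars, the 3 shT2 samples above the 3 shNC3 samples) along CACNA2D2, CACNA1C, the lower end of CACNA2D4, and CACNG8 with the start of CACNG6, against distance in kb from the lower end of the gene span, which is drawn as a black bar (grey for CACNG6); a thin outline keeps the shortest peaks visible and widens them slightly. The CACNA2D2 and CACNA1C bodies hold many short peaks in shT2 samples, CACNA2D4 has 1 or 2 long peaks in shT2 samples where shNC3 samples have separate ones, and the left part of CACNG8 holds peaks mainly in shNC3 samples.

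Of the 3 tested β genes, CACNB2 was longer in shT2, CACNB3 was shorter and CACNB1 did not pass. CACNB2, the β subunit best known from the heart, had 3.18, 3.83 and 4.00 kb in shT2 samples against 1.90, 2.16 and 2.81 kb in shNC3 samples, with no overlap and a log2 difference of 0.59 ± 0.16 (SE, n = 3 each, limma adjusted p = 0.0199). The region over the promoter window printed above, chr10:18139413-18142108, was in all 6 samples. Its 2696 bp were covered in full in every shT2 sample and in shNC3 replicate 3, and shNC3 replicates 1 and 2 had 1888 and 1915 bp. A second region near the other end of the gene, chr10:18520842-18521983, within CACNB2-AS1, had 596, 1142 and 581 bp in shT2 samples and none in shNC3 samples. The difference was 0.48 to 0.72 when 1 sample was left out. It did not pass without shT2 replicate 2 or 3 or without shNC3 replicate 1 or 2, nor with peaks of at least 5-fold enrichment (0.44, limma adjusted p = 0.107), with 10 kb on each side (0.27, limma adjusted p = 0.173) or with windows around the gene ends (0.15, limma adjusted p = 0.411).

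CACNB3, a β subunit of neurons and many other cells, had 16.3, 15.4 and 16.6 kb in shT2 samples against 18.4, 20.2 and 18.7 kb in shNC3 samples. The groups did not overlap, and the log2 difference was −0.24 ± 0.06 (SE, n = 3 each, limma adjusted p = 0.00993). Its window is 18.5 kb long, so scaling put shNC3 replicates 2 and 3 above the window length. Before scaling it had 16869, 16934 and 17049 bp in shT2 samples against 18288, 17935 and 17903 bp in shNC3 samples. The difference ranged from −0.43 to −0.09 over the alternatives. CACNB3 was the channel gene covered most completely, with 91.8% of its window under peaks on average in shT2 samples and 97.7% in shNC3 samples. One region of 18923 bp, chr12:48811845-48830767, spans the whole gene with its 3 promoter windows and reaches into DDX23, a helicase gene, and LOC101927241. DDX23 was shorter in shT2 too, with 9.86 kb on average in shT2 samples and 13.2 kb in shNC3 samples (log2 difference −0.40, limma adjusted p = 0.00162). With peaks of at least 5-fold enrichment CACNB3 did not pass (−0.43, limma adjusted p = 0.178).

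CACNB1, the β subunit of skeletal muscle that is also made in brain, had 13.9, 12.5 and 13.1 kb in shT2 samples against 14.0, 15.2 and 14.8 kb in shNC3 samples. These values did not overlap, but the log2 difference of −0.15 ± 0.06 (SE, n = 3 each) did not pass (limma adjusted p = 0.0669). The region at its start, shared with the ribosomal protein gene RPL19 and with LOC124903996, put the same 3928 bp of the CACNB1 window under peaks in all 6 samples. Before scaling the values did overlap, with 14395, 13749 and 13436 bp in shT2 samples and 13917, 13429 and 14220 bp in shNC3 samples. That covered length was 49.1% of the window on average in shT2 samples and 49.1% in shNC3 samples.

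Of the 4 tested γ genes, CACNG4 and CACNG8 were shorter in shT2 and CACNG6 was longer. CACNG4, an AMPA receptor auxiliary subunit, had 21.4, 18.5 and 19.4 kb in shT2 samples against 24.6, 26.8 and 25.5 kb in shNC3 samples. No shT2 value reached the lowest shNC3 value, and the log2 difference was −0.37 ± 0.06 (SE, n = 3 each, limma adjusted p = 0.0028). It held 17 regions, 7 of them in all 6 samples, at both ends of the span. The difference was plain at the lower end, where the region chr17:66964879-66968395 had 2558, 1057 and 1412 bp in shT2 samples against 3517, 3090 and 3256 bp in shNC3 samples. At the upper end the region chr17:67029689-67039462 put 5710, 4938 and 5103 bp of the window under peaks in shT2 samples and 5059, 4714 and 5243 bp in shNC3 samples, with overlapping values.

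CACNG8, another AMPA receptor auxiliary subunit, had 10.5, 10.2 and 12.3 kb in shT2 samples against 17.1, 16.5 and 17.2 kb in shNC3 samples. The log2 difference was −0.60 ± 0.07 (SE, n = 3 each, limma adjusted p = 0.000623), and the highest shT2 value was below the lowest shNC3 value. Its core region, chr19:53975115-53981224, was in all 6 samples with 5195, 5746 and 5195 bp in shT2 samples and 5687, 5820 and 5986 bp in shNC3 samples. To its left, chr19:53969243-53971420 had no peak in shT2 samples and 2178, 582 and 1437 bp in shNC3 samples, the 1 channel region found in all shNC3 samples and no shT2 sample. In total 5 of its 14 regions were seen in shNC3 samples only and none in shT2 samples only. Within 2 kb of the gene ends alone the difference was −0.17 and did not pass (limma adjusted p = 0.304).

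CACNG6, a γ gene of the calcium channel group that lies next to CACNG8 and shares 3 of its 4 regions, had 3.48, 3.21 and 3.17 kb in shT2 samples against 2.49, 2.45 and 2.31 kb in shNC3 samples. The groups did not overlap and the log2 difference was 0.38 ± 0.12 (SE, n = 3 each, limma adjusted p = 0.0297). The values of the promoter region overlapped, with 1157, 1107 and 1161 bp in shT2 samples and 1322, 1068 and 1201 bp in shNC3 samples. The region after it, chr19:53992552-53993903, was covered over its full 1352 bp in each shT2 sample but over 429, 296 and 321 bp in shNC3 samples. This call was the least firm of the 10. It did not pass without shT2 replicate 1, 2 or 3 or without shNC3 replicate 1 or 3, nor with 10 kb on each side (0.05), nor with the replicate number as a block (limma adjusted p = 0.0895).

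CACNG7, which lies in the same cluster of γ genes on chromosome 19, had 7.04, 7.18 and 7.67 kb in shT2 samples and 6.72, 7.56 and 9.01 kb in shNC3 samples, with overlapping values. Its log2 difference was −0.08 ± 0.11 (SE, n = 3 each, limma adjusted p = 0.567). Most of it was 1 region at the upper end of the gene, chr19:53937438-53944733.

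No sodium channel gene passed the test. SCN8A, the main sodium channel of the axon initial segment and nodes, had 2.54, 2.59 and 2.90 kb in shT2 samples and 3.11, 1.78 and 3.27 kb in shNC3 samples, with overlapping values. The log2 difference was 0.01 ± 0.21 (SE, n = 3 each, limma adjusted p = 0.963). On either side of the promoter window printed above lay chr12:51590338-51590652, with 280, 305 and 315 bp in shT2 samples and none in shNC3 samples, and chr12:51591429-51593063, with 803, 482 and 778 bp in shT2 samples and 1033, 0 and 1407 bp in shNC3 samples. The longest coverage was at the 3′ end, in a region shared with TMDD1.

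SCN11A, a sodium channel of pain-sensing neurons, averaged 0.787 ± 0.368 kb in shT2 samples and 0.237 ± 0.207 kb in shNC3 samples (SD, n = 3 each). Its values overlapped and the log2 difference of 0.80 ± 0.35 (SE) did not pass (limma adjusted p = 0.0896). Its only region, chr3:39051772-39052801, is shared with WDR48, which was longer in shT2, with 2.64 kb on average in shT2 samples and 1.30 kb in shNC3 samples (log2 difference 0.81, limma adjusted p = 0.00477). With lists thinned to equal depth, SCN11A passed as longer (1.10, limma adjusted p = 0.0339).

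Counted as merged regions, the channel genes held 117, of which 31 (26.5%) were in all 6 samples, beside 20.6% of all 75758 regions. Regions found in all 3 shT2 samples and no shNC3 sample numbered 9 (7.69%), beside 5.87% of all regions. They were 3 in CACNA2D2, 2 each in CACNA1B and CACNA1C, and 1 each in CACNB2 and SCN8A. The reverse pattern was found in 1 region (0.855%), the one in CACNG8, beside 2.86% of all regions. A further 47 regions (40.2%) were in a single sample, beside 37.9% of all regions.

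Other genes of the pathway were read from a list of 51 regulators and related calcium channels, of which 50 were in the table. A peak in at least 3 samples was found for 37. Coverage was longer in shT2 for 5 of them (13.5%, beside 24.2% of all tested genes) and shorter for 14 (37.8%, beside 27.2%), so that 51.4% passed beside 51.3%. The difference from the channel genes was not tested. FGF12, STAC2, ITPR1, ITPR2 and CATSPER1, all among the 14, had no peak in any shT2 sample. They met the condition for being tested only through their shNC3 samples, so their places among the 14 are a description. With a peak demanded in all 6 samples, 9 of 32 tested regulators were shorter, beside 2469 of 9395 genes in all. RIMBP2, which ties calcium channels to the release site, had 40.2, 44.1 and 42.8 kb in shT2 samples against 26.9, 25.7 and 23.9 kb in shNC3 samples (log2 difference 0.72, limma adjusted p = 8.99e-05). The others named among the longer were FGF14, which binds the tails of sodium channels (0.60), RIMS3, a protein of the presynaptic zone (0.72), and REST, the repressor of neuronal genes first described on a sodium channel gene (0.68).

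On the shorter side, CATSPER1, the calcium channel of sperm, had no peak in shT2 samples and 8.08, 9.27 and 8.46 kb in shNC3 samples. It met the condition for being tested only through its shNC3 samples, so this is a description. NFASC, the adhesion molecule that holds sodium channels at nodes and initial segments, averaged 2.54 ± 0.182 kb in shT2 samples and 5.61 ± 0.532 kb in shNC3 samples (SD, n = 3 each), a log2 difference of −1.01. CALM3, a calmodulin gene, and TPCN2, a lysosomal cation channel gene, had log2 differences of −0.71 and −0.69. No peak was found in FGF13, CNTN1, NALCN, NALF2, REM1, TSPAN13, CAMK2A or RYR1.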

How the data were processed

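DRIP-seq was run on SH-SY5Y cells with the hairpin shT2 (3 samples) or shNC3 (3 samples). Groups and replicate numbers were taken from the sample titles. Each sample has 1 list of narrow peaks, called per sample, and no read counts. Tools named in the submitters' processing notes are MACS2 2.2.6, Bowtie2 2.4.4 and SAMtools, with hg38 as the build. Which control the peak caller was given is not stated in these sources. The deposited lists give for each peak an integer score, a fold enrichment (a linear ratio) at the summit, a −log10 p-value and a −log10 q-value, as the authors' peak caller wrote them. The deposited peaks reach a q-value of 0.01. Percentiles of fold were taken within a sample's own list.

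Peaks were merged within a sample, and the length under them was summed over each gene span plus 2 kb of the RefSeq table of GRCh38.p14. Scaling gave every sample the same total. For the test, limma 3.58.1 (R 4.3.3; trend and robust, no covariates) was run on log2(scaled bp + 500) of the 11771 protein-coding genes with a peak in at least 3 samples, adjusted by Benjamini-Hochberg and called below 0.05. Log2 differences are on that scale and understate changes of short coverage. Genes with no peak under a hairpin are given by level, with no fold. Regions are merged peaks of all samples, counted for a sample that overlaps them by 1 bp or more. Depth in fragments per base was recovered from the deposited fold and p-value of each peak. The 20 alternatives covered scaling, pseudocount, filters, peak thresholds, depth, gene window, the test settings, a replicate block and each sample left out.

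The channel genes and the lists of regulators and cell markers were chosen with earlier results of these data known. Tested channel genes were named, with values per sample for those that passed and for the 4 others with the longest coverage, except where a gene is not reported here, and regulators by the smallest p, up to 4 in each direction. The channel genes have no strand here where the promoter table does not list them. No genome sequence was used here, so peaks are given by position only.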

Additional observations from a re-analysis of the deposited data

How the results depend on the processing

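Of 191 refits of the 10 channel genes that passed, under the 20 alternatives they could be tested in, 172 kept the call, 19 lost it and 0 reversed. CACNA1C, CACNA1S, CACNA2D4 and CACNG4 kept it in all of theirs (17, 19, 20 and 20). CACNA1S could not be tested on the gene span with no flank, where too few samples had a peak. Its call therefore depends on the flank. CACNA1C could not be tested with a peak demanded in all 6 samples, with 5-fold peaks or around the gene ends, so its 17 leave out these demanding settings. CACNA1B kept it in 15, which are counted in the 191 and the 172. The alternatives that leave out an shT2 sample, demand a peak in all 6 samples or keep only 5-fold peaks could not test it. Its 15 refits therefore say nothing of its stability. The 19 lost calls were those of CACNG6 (9), CACNB2 (7), and CACNA2D2, CACNB3 and CACNG8 (1 each). With 2 kb windows around the gene ends, 2 of 16 tested channel genes were longer in shT2 (against 6), beside 1572 of 10577 genes in all (against 2843). These 2 were CACNA2D4 and CACNA1B, the latter tested only through its shT2 samples. Of 34 tested regulators 0 were longer (against 5). With peaks of at least 5-fold enrichment, 3 of 34 tested regulators were longer and 6 shorter (against 14). Of 10144 genes in all, 1846 were then longer and 1955 shorter (against 3199). With a peak demanded in all 6 samples, 9 of 32 tested regulators were shorter, beside 2469 of 9395 genes. FGF12, STAC2, ITPR1, ITPR2 and CATSPER1, with no peak in shT2 samples, could not then be tested, nor with an shNC3 sample left out. Without scaling, 2044 genes were shorter, and 60.9% of calls were longer in shT2 beside 47.1%, with a median of all genes of 0.06 beside −0.08. Around the gene ends 37.1% of calls were longer. Leaving out 1 sample gave 3 to 5 longer and 4 to 4 shorter channel genes, 4 to 6 longer and 7 to 13 shorter regulators, and 2101 to 2746 longer and 2346 to 2716 shorter genes. The lowest count of longer channel genes, 3 of 16 tested, came without shT2 replicate 2 or 3, beside 2101 of 11287 and 2156 of 11294 genes. There CACNA1B could not be tested, and CACNB2 and CACNG6 lost their calls. The lowest counts of shorter regulators, 7 or 8 of 32 tested, came without any 1 of the shNC3 replicates, beside 2346 to 2598 genes in all. CACNA1G, CACNB1, CACNG7 and SCN8A, which did not pass, changed sign without passing. CACNA1G gave 0.0131 with equal numbers of peaks, 0.0143 at equal depth, 0.32 with no flank, 0.0938 without scaling, 0.13 with q up to 0.0001, and −0.30 to 0.15 with 1 sample left out. CACNB1 gave 0.0003 without scaling. CACNG7 gave 0.0716 without scaling, 0.05 at 5-fold, 0.0002 with 10 kb, 0.25 at the gene ends, and −0.17 to 0.0308 with 1 sample left out. SCN8A gave −0.063 with equal numbers, −0.97 at 5-fold, −0.013 with q up to 0.0001, −0.0203 with 10 kb, −0.0434 at the gene ends, and −0.22 to 0.15 with 1 sample left out. The causes were not tested. CACNB1 passed as shorter with q up to 0.0001, with 10 kb and at the gene ends, and SCN11A passed as longer in 4 of its 19 alternatives. The replicate numbers do not pair the samples: deviations of same-numbered samples correlated at −0.02, −0.06 and −0.01 over genes. With a replicate block 2825 genes were longer and 2866 shorter, and CACNG6 (0.38, limma adjusted p = 0.0895) was the channel gene that lost its call. Without read counts, the depth of a single peak limits what a missing peak can show, and shNC3 samples were the shallower.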
